A study of Mus musculus with 4 samples.

Results

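The CCAAT/enhancer-binding protein (C/EBP) genes were followed in KL cells of donor origin, myeloid progenitors of the marrow that carry c-Kit and lack Sca-1 and lineage antigens. The members were taken by their family name, with earlier results of these data known, as the genes *Cebpa*, *Cebpb*, *Cebpd*, *Cebpe*, *Cebpg* and *Cebpz*. All 6 were present in the deposited table, 6 of its 12067 genes. The study asked how loss of function of *Bcor*, a component of a Polycomb repressive complex, alters myeloid progenitors. The data were 4 libraries, 2 of BcorΔE9-10 and 2 of BcorWT origin. BcorΔE9-10 donors were scl-Cre-ERT +; Bcorfl/y, in which Cre activated by tamoxifen removes a pair of internal exons of *Bcor*. BcorWT donors were Bcorfl/y without Cre and, by the study's methods, were given tamoxifen as well. Both groups therefore carried the floxed allele. Cre in this line is driven by a stem cell enhancer of *Tal1* (*Scl*), so the deletion arises in stem cells and is inherited by the progenitors sorted. Whole bone marrow was transplanted into sub-lethally irradiated *Ptprca* recipients, whose own cells carry another CD45 allele, and CD45.2+ KL cells were sorted after 20 weeks. Tamoxifen was given at 3 to 6 months of age. The age of the donors at transplant, and whether a library pooled recipients, are not given in the sources used here, so the spread between libraries may be technical as well as biological.

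C/EBP proteins are transcription factors of the basic leucine zipper (bZIP) class. They bind DNA as homodimers or as heterodimers with each other and with other bZIP proteins. In the marrow C/EBPα is required to form granulocyte-monocyte progenitors. C/EBPε drives the terminal steps of granulocyte formation. C/EBPβ sustains granulocyte output under infection or cytokine stress, C/EBPδ is induced by inflammatory signals, and C/EBPγ, which lacks the activation domains of its relatives, acts mainly as a dimer partner. The product of *Cebpz* carries the family name but is a nucleolar protein of the Noc1 type without a bZIP domain. The name C/EBPζ has also been used for the product of *Ddit3* (CHOP), which does have one.

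The stretch of coding sequence that defines the family is the basic region, which contacts DNA. The 60 coding bases taken for it in *Cebpa* were the in-frame stretch with the most matches to the other bZIP members. That choice favours the identities of those members over those of other genes. These bases were aligned without gaps to the best matching 60 coding bases of each other gene in the table with a coding sequence. They are shown for 4 members to make visible how far this region is shared. Capitals mark bases identical to *Cebpa*, and each line is the coding strand read 5′ to 3′, from GENCODE transcripts on GRCm38.
Cebpa: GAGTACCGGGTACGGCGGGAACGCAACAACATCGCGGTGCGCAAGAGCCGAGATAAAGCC
Cebpb: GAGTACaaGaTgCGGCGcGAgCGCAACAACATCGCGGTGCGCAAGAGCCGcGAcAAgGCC
Cebpe: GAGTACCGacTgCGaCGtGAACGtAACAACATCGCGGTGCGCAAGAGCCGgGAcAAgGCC
Cebpg: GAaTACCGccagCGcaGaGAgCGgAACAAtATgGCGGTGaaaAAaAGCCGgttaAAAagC
The stretch lies at chr7:35120271-35120330 (plus strand) in *Cebpa* and chr2:167689691-167689750 (plus) in *Cebpb*. In *Cebpe* it lies at chr14:54710710-54710769 (minus) and in *Cebpg* at chr7:35050588-35050647 (minus). *Cebpb* and *Cebpe* each shared 85.0% of these bases with *Cebpa*, and *Cebpg* shared 63.3%. The best match in *Cebpz* shared 43.3% and that in *Ddit3* 45.0%, while the median gene among 10108 with a coding sequence reached 45.0%. *Cebpz*, which has no bZIP domain, was kept apart wherever the family was summed.

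The members are spread over 5 chromosomes. *Cebpa* (ENSMUSG00000034957, chr7:35119293-35121928, plus strand), *Cebpb* (ENSMUSG00000056501, chr2:167688915-167690418, plus) and *Cebpd* (ENSMUSG00000071637, chr16:15887286-15891031, plus) have a single exon each. *Cebpe* (ENSMUSG00000052435, chr14:54710360-54712174, minus) has 2 exons. *Cebpg* (ENSMUSG00000056216, chr7:35046422-35056573, minus) lies 62719 bases from *Cebpa* on the opposite strand. *Cebpz* (ENSMUSG00000024081, chr17:78919006-78937066, minus) has 16 exons, and its 3′ end overlaps that of *Cebpzos*, a gene on the other strand. The shared span is 1301 bases, of which 171 are exonic in both genes. *Cebpb* shares 312 exonic bases with the antisense gene *Tmem189*, and *Cebpd* shares 562 with *Spidr*. Whether reads were counted by strand is not given in the sources used here, so reads of these overlapping pairs could not be told apart if strand was not used.

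RefSeq promoter windows on GRCm38.p6 were matched for 3 of the 6 members, *Cebpa*, *Cebpb* and *Cebpg*. The 250 bases before the start are shown for *Cebpa* (chr7:35119043-35119292, plus strand) and *Cebpb* (chr2:167688665-167688914, plus strand), because their levels went opposite ways within libraries, as described further on. Capitals mark the letters TGACG, the core of a cAMP response element, on either strand, where CGTCA is the match on the minus strand.
Cebpa: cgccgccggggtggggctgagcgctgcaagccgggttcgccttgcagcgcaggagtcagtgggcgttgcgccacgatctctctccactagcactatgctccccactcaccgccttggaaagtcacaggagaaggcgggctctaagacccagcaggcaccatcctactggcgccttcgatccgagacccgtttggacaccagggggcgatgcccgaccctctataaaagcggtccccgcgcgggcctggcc
Cebpb: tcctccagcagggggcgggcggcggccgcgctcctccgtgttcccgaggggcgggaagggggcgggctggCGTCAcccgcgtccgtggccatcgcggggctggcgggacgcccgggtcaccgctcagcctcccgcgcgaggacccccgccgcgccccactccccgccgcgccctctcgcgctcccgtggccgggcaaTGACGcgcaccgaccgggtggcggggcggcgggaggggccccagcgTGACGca
The letters TTNNGNAA (a C/EBP-type site), CCAAT and TGACG were searched on both strands of windows from 250 bases before to 50 bases after the start. They occurred in 40.7%, 37.4% and 20.8% of 32851 such windows. *Cebpa* held none of them. *Cebpb* held TGACG at 3 places, beginning at -180, -53 and -7 relative to the start, and neither of the others. *Cebpg* held CCAAT at -89 and -28, both on the strand opposite to the gene. These matches describe letters only, and binding was not measured here.

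Quant-seq counts transcripts near their 3′ ends, about 1 read position per molecule, so levels of different genes were compared as CPM (counts scaled to library size with TMM factors) without a length term. Total counts ranged from 3825289.5 to 6253100.5 per library, and a level of 3 counts corresponded to 0.489 to 0.876 CPM. BcorWT replicate 2 stood apart. Its Pearson's r of log2 CPM with the other libraries, across genes, was 0.893 to 0.902, against 0.924 to 0.947 among the other 3. The ribosomal RNA-like transcript *Gm42418* took 1.43% of its counts and 14.3% to 27.9% elsewhere. *Bcor* had 104 and 113 counts in BcorΔE9-10 and 58 and 79 in BcorWT, which does not check the deletion, because the exons removed are internal and the counts come from the 3′ end. Among markers of the sort, *Kit* was at 52.1 and 61.9 CPM in BcorΔE9-10 and at 53.7 and 29.4 CPM in BcorWT. *Ly6a*, which encodes Sca-1, was at 0 to 3.80 CPM. The 5 erythroid markers measured summed to 88.9 and 80.7 CPM in BcorΔE9-10 and 25.1 and 41.0 CPM in BcorWT. The 5 mast cell and basophil markers summed to 101 and 115 against 329 and 412 CPM, and the 5 eosinophil markers to 181 and 137 against 264 and 356 CPM. *Klf1*, a defining erythroid factor, was at 4.44 and 2.77 CPM in BcorΔE9-10 and at 0.292 and 0.753 CPM in BcorWT, without overlap. The BcorWT values came from 1 and 4 counts, near the level of 3 counts. The part of these cell types in the C/EBP values was not tested. Of 5 markers each, 3 for B cells summed to 13.4 to 32.3 CPM over the 4 libraries, 1 for T cells was at 2.28 to 6.96 CPM, 2 for macrophages summed to 177 to 269 CPM, 3 for megakaryocytes to 31.9 to 78.5 CPM and 2 for stem cells to 11.1 to 17.8 CPM. Others, among them *Cd3e* and *C1qa*, had no row in the table.

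The C/EBP genes did not separate the genotypes in these transplant libraries. In KL cells of the primary mice, which were not used here, the study listed *Cebpb* and *Cebpg* among differentially regulated transcription factors. The groups overlapped for all 6 members, and 0 of 6 passed an adjusted p of 0.05 in edgeR's quasi-likelihood test, where 2 of 12067 genes (0.0166%) did. Without adjustment 0 of 6 members passed 0.05 by edgeR, against 4.42% of all genes, 1.34% higher and 3.07% lower in BcorΔE9-10. DESeq2 and limma-voom also called 0 of 6, with or without adjustment. Groups did not overlap for 33.9% of all genes, and for 0 of 6 members. What varied was the level of single members between libraries of the same genotype, most widely of *Cebpb*, whose gap between libraries was the largest of the 6 in both genotypes.

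**Figure D1:**
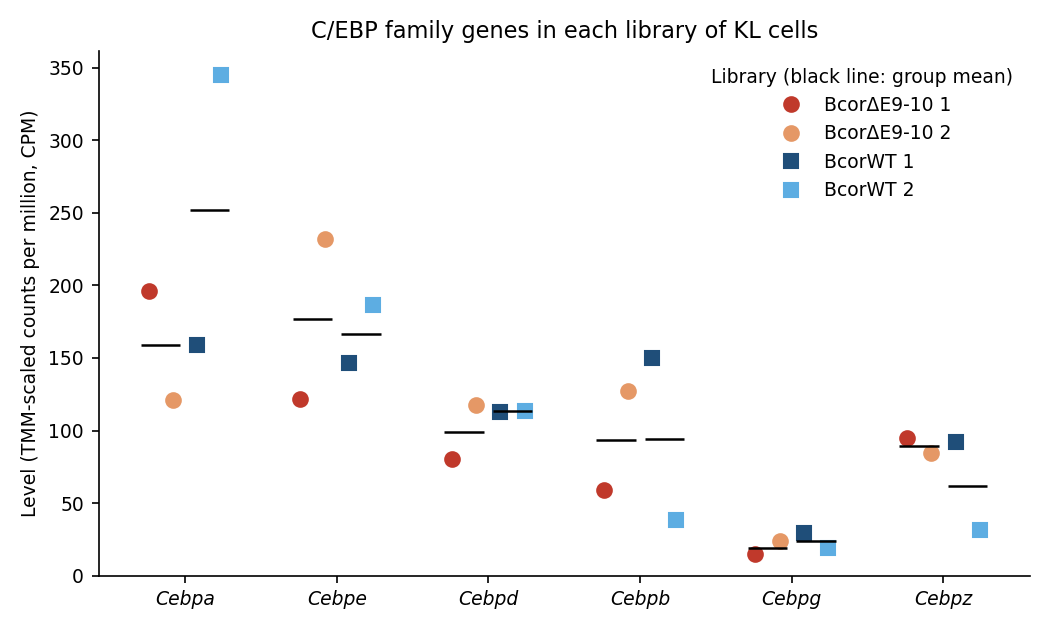
Level of each C/EBP gene in TMM-scaled CPM (vertical axis, from 0) by gene (horizontal axis). Circles are the 2 BcorΔE9-10 libraries, squares the 2 BcorWT libraries, and black lines the group means. For each gene the circles and squares overlap, and BcorWT replicate 2 holds the highest *Cebpa* value (345 CPM) and the lowest *Cebpb* and *Cebpz* values (38.0 and 31.8 CPM).

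*Cebpa*, the factor required for granulocyte-monocyte progenitors, was the most abundant member on average, at a mean of 205 CPM over the 4 libraries. Only 5.06% of genes had a higher mean. It was at 196 and 121 CPM in BcorΔE9-10 replicates 1 and 2, from 1063 and 743 counts, and at 159 and 345 CPM in BcorWT replicates 1 and 2, from 544 and 1834 counts. BcorWT replicate 2 was the highest library and BcorΔE9-10 replicate 2 the lowest, and the groups overlapped because BcorWT replicate 1 lay between the BcorΔE9-10 libraries. The group means were 159 ± 53.3 and 252 ± 132 CPM (SD, n = 2 each). The log2 fold change was -0.67 (SE 0.45, 95% interval -1.71 to 0.38, edgeR adjusted p = 0.945). That interval spans from 0.306-fold to 1.297-fold, so a difference of either direction was within the error. Without BcorWT replicate 2 the log2 fold change was -0.00, and without BcorWT replicate 1 it was -1.12 (edgeR adjusted p = 0.0782).

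*Cebpe*, the driver of late granulocyte formation, followed at a mean of 172 CPM. In the libraries it was at 122 and 232 CPM in BcorΔE9-10 and 146 and 186 CPM in BcorWT, from 660, 1421, 501 and 991 counts. The BcorΔE9-10 libraries held both the lowest and the highest value, with both BcorWT libraries between them. Means were 177 ± 77.5 and 166 ± 28.4 CPM (SD, n = 2 each), a log2 fold change of 0.09 (SE 0.39, 95% interval -0.82 to 0.99, edgeR adjusted p = 0.986). Its sign depended on the libraries used, at 0.27 without BcorWT replicate 2, -0.08 without BcorWT replicate 1 and -0.45 without BcorΔE9-10 replicate 2.

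*Cebpd*, the member induced by inflammatory signals, was the steadiest of the 6. It was at 80.6 and 118 CPM in BcorΔE9-10 and at 113.0 and 113.3 CPM in BcorWT, from 436, 723, 387 and 602 counts. The BcorWT libraries were nearly equal and lay between the BcorΔE9-10 libraries, of which replicate 1 was low. The highest library exceeded the lowest by 1.46-fold, the smallest such range among the members. The log2 fold change was -0.19 (SE 0.33, 95% interval -0.95 to 0.58, edgeR adjusted p = 0.965). It was -0.19 without BcorWT replicate 2 and 0.06 without BcorΔE9-10 replicate 1. *Spidr*, the gene overlapping it, was far lower, at 7.15 to 18.7 CPM.

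*Cebpb*, the factor of emergency granulocyte output, had the widest range. It was at 59.1 and 127 CPM in BcorΔE9-10, from 320 and 782 counts, and at 150.1 and 38.0 CPM in BcorWT, from 514 and 202 counts. The BcorWT libraries held both extremes, 3.95-fold apart, and the BcorΔE9-10 libraries lay between them. The means almost coincided, at 93.3 ± 48.3 and 94.1 ± 79.3 CPM (SD, n = 2 each). The log2 fold change was -0.01, but its SE of 0.63 and 95% interval of -1.47 to 1.46 (edgeR adjusted p = 0.999) leave a range from 0.361-fold to 2.74-fold. Equal means here therefore do not show equal expression. Leaving out BcorWT replicate 1 moved the log2 fold change to 1.29 and leaving out BcorWT replicate 2 to -0.69. The antisense gene *Tmem189* was at 14.6 and 20.7 against 21.9 and 28.2 CPM, an order of libraries unlike that of *Cebpb*.

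*Cebpg*, the dimer partner without activation domains, was the lowest member in every library. It was at 14.8 and 23.6 CPM in BcorΔE9-10 and 29.5 and 18.8 CPM in BcorWT, from 80, 145, 101 and 100 counts. The BcorΔE9-10 library with 23.6 CPM lay between the BcorWT libraries. The log2 fold change was -0.32 (SE 0.41, 95% interval -1.26 to 0.62, edgeR adjusted p = 0.954). Without BcorWT replicate 2, the library that stood apart, it was -0.62, and without BcorWT replicate 1 it was 0.03.

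*Cebpz*, the nucleolar member, was at 94.6 and 84.6 CPM in BcorΔE9-10 and at 92.3 and 31.8 CPM in BcorWT, from 512, 519, 316 and 169 counts. BcorWT replicate 1 lay between the BcorΔE9-10 libraries, and BcorWT replicate 2 was 2.90-fold below the other BcorWT library. The log2 fold change was 0.54 (SE 0.49, 95% interval -0.59 to 1.66, edgeR adjusted p = 0.945). It rested on BcorWT replicate 2. Without that library it was -0.04, and with that library as the only BcorWT sample it was 1.49 at an edgeR adjusted p of 0.0296, a fit in which 596 of 12063 genes (4.94%) were called. That fit assumes that the lone BcorWT library varies as the BcorΔE9-10 libraries do. *Cebpzos*, which overlaps its 3′ end, was at 18.3 and 19.7 CPM in BcorΔE9-10 and at 12.6 and 8.28 CPM in BcorWT. Its groups did not overlap, and its log2 fold change was 0.88 (SE 0.40, edgeR adjusted p = 0.945). *Ddit3*, the other gene called C/EBPζ, was at 62.5 and 52.8 against 68.0 and 64.9 CPM. Both BcorWT libraries were above both BcorΔE9-10 libraries, with a log2 fold change of -0.21 (SE 0.31, edgeR adjusted p = 0.961).

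**Figure D2:**
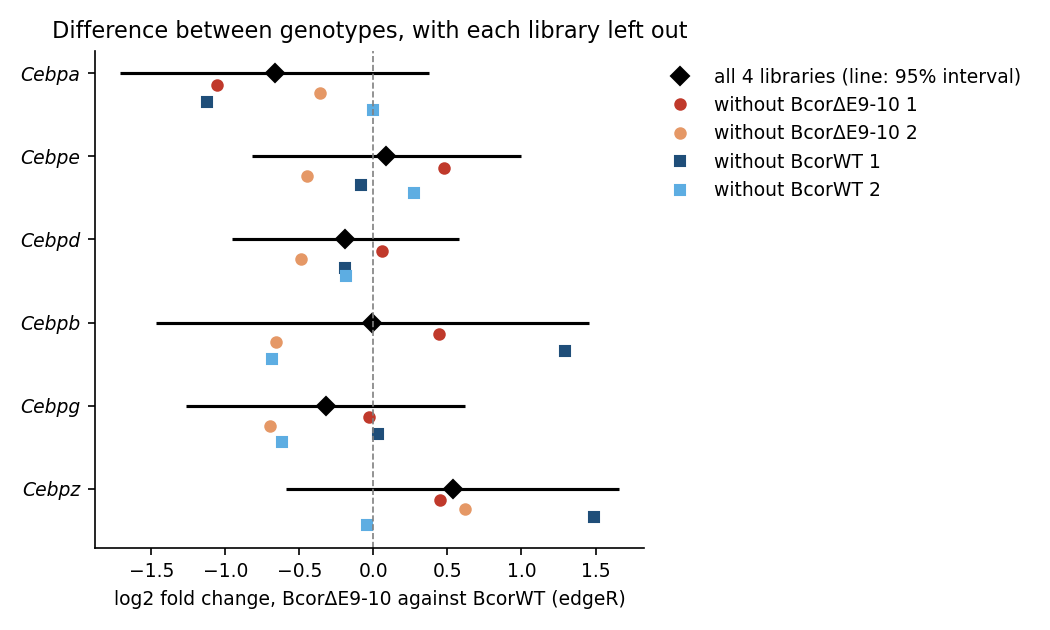
Log2 fold change of BcorΔE9-10 against BcorWT (horizontal axis) for each C/EBP gene. Diamonds and lines are the edgeR estimate from all 4 libraries with its 95% interval, and coloured symbols are the estimate with 1 library left out. All 6 intervals include 0, and the estimates without 1 library run from -0.69 to 1.29 for *Cebpb* and from -0.49 to 0.06 for *Cebpd*.

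Libraries of the same genotype differed more in some members than in most other genes. Among 8093 genes with a mean of at least 10 CPM, the median absolute log2 gap was 0.26 between the BcorΔE9-10 libraries and 0.50 between the BcorWT libraries. *Cebpb* had gaps of 1.10 and 1.97, larger than those of 96.2% and 97.7% of these genes. *Cebpe* had a gap of 0.92 in BcorΔE9-10, larger than that of 94.3% of genes, but of 0.35 in BcorWT, below the median. *Cebpz* showed the reverse, with 0.16 in BcorΔE9-10 and 1.53 in BcorWT, where 94.2% of genes had a smaller gap. The gaps of *Cebpa* were 0.70 and 1.12, those of *Cebpg* 0.66 and 0.64, and those of *Cebpd* 0.55 and under 0.01. Both groups therefore contained members with wide gaps, and *Cebpb* alone exceeded 95% of genes in both. These percentages describe the 4 libraries and carry no test.

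The order of the mean levels was *Cebpa*, *Cebpe*, *Cebpd*, *Cebpb*, *Cebpz* and *Cebpg*, at 205, 172, 106, 93.7, 75.8 and 21.7 CPM. *Cebpe* exceeded *Cebpd* in 4 of 4 libraries, and *Cebpz* exceeded *Cebpg* in 4 of 4. *Cebpa* exceeded *Cebpe* in 3 libraries and *Cebpb* exceeded *Cebpz* in 3. *Cebpd* exceeded *Cebpb* in only 2 of 4, so these neighbours do not differ beyond their spread. *Cebpa* was the highest member in 3 libraries and *Cebpe* in BcorΔE9-10 replicate 2. Without BcorWT replicate 2, only 2 of the 6 members kept their place in the order, and *Cebpe* rather than *Cebpa* came first.

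The make-up of the bZIP family differed between libraries more than its total. The 5 bZIP members together reached 473 and 622 CPM in BcorΔE9-10 and 598 and 702 CPM in BcorWT, with means of 547 ± 105 and 650 ± 73.5 CPM (SD, n = 2 each) that overlapped. *Cebpa* supplied 41.5% of these counts in BcorΔE9-10 replicate 1 (95% Wilson interval 39.6 to 43.5) and 19.5% in replicate 2 (18.3 to 20.8). In BcorWT it supplied 26.6% (24.7 to 28.5) and 49.2% (47.6 to 50.8). No 2 of these intervals overlap, so the spread between libraries exceeded the counting error, which is all that the intervals cover. *Cebpb* went the other way, with 12.5% (11.3 to 13.8) and 20.5% (19.3 to 21.8) in BcorΔE9-10 and 25.1% (23.3 to 27.0) and 5.42% (4.74 to 6.19) in BcorWT. The 2 libraries richest in *Cebpa* were thus the 2 poorest in *Cebpb*, and each genotype had 1 of them. Shares of a sum are tied to each other, and the same 2 libraries had the lowest shares of *Cebpd* and *Cebpg* too. In CPM these 2 libraries were also the highest in *Cebpa* and the lowest in *Cebpb* and *Cebpg*, but not the 2 lowest in *Cebpd*. *Cebpd* stayed between 16.1% and 19.0%. *Cebpe* took 25.8% and 37.3% in BcorΔE9-10 and 24.5% and 26.6% in BcorWT, and *Cebpg* took 2.68% to 4.93%.

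**Figure D3:**
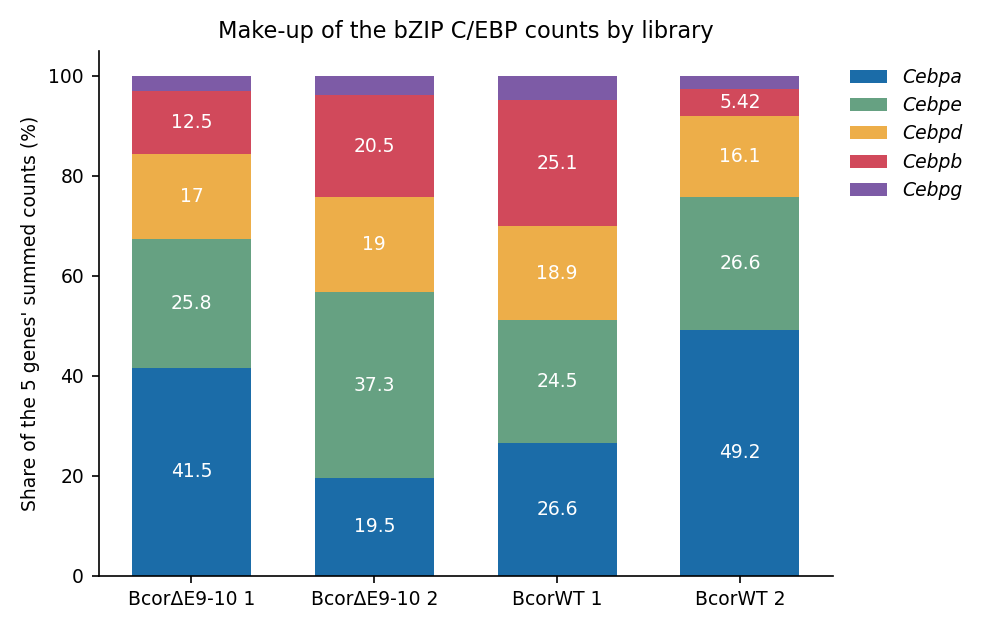
Share of the summed counts of the 5 bZIP C/EBP genes (vertical axis, percent) in each library (horizontal axis), stacked by gene. The *Cebpa* share runs from 19.5% in BcorΔE9-10 replicate 2 to 49.2% in BcorWT replicate 2, where the *Cebpb* share is 5.42%.

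Ratios of members within a library do not depend on scaling. The *Cebpa* to *Cebpb* ratio, which sets the factor of steady-state granulocyte production against that of emergency production, was 3.32 and 0.9502 in BcorΔE9-10 and 1.06 and 9.06 in BcorWT. BcorΔE9-10 replicate 2 and BcorWT replicate 1 had near-equal counts of both genes, and BcorWT replicate 2 was high. The difference of the group means was -0.80 on the log2 scale, and the exact two-sided permutation test gave p = 0.667, where the smallest p that 2 against 2 libraries allow is 0.333. The log2 ratio of *Cebpa* to *Cebpe* was 0.69 and -0.94 in BcorΔE9-10 and 0.12 and 0.89 in BcorWT. That of *Cebpa* to its partner *Cebpg* was 3.72 and 2.35 against 2.42 and 4.19, and that of *Cebpb* to *Cebpd* was -0.45 and 0.11 against 0.41 and -1.57. Groups overlapped for all 4 ratios, and the exact permutation p adjusted over the 4 pairs was 0.889 for the first 3 and 1 for the last. A test of this size cannot show that the ratios are equal.

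Each member was also compared with all other genes by its profile, the log2 CPM in the 4 libraries less the gene's own mean. Likeness was the root mean square distance between profiles over 8092 genes with a mean of at least 10 CPM, and it describes 4 points that share library depth and scaling. *Cebpa* was nearest to *Farsa*, *Eef2* and *Zfp771*, at distances of 0.0404, 0.0480 and 0.0496 log2 units. *Cebpe* was nearest to *Clcn7*, *Sh3bp5* and *Degs1* (0.0394 to 0.0516), and *Cebpd* to *Itih5*, *Uckl1* and *Ncoa1* (0.0201 to 0.0239). *Cebpg* was nearest to *Klhl12*, *Prcp* and *1110004E09Rik* (0.0553 to 0.0582), and *Cebpz* to *Acsl3*, *Cep350* and *Slf1* (0.0233 to 0.0420). *Cebpb* had the most isolated profile by this distance, which is not scaled for range, and also the widest range of the members. Its nearest genes were *Sft2d1*, *Tmem38b* and *Inppl1* at 0.0881, 0.129 and 0.152, and 9 genes in all lay within 0.2, against 688 for *Cebpd* and 151 to 216 for the other 4 members. Within the family, *Cebpd* and *Cebpe* were closest at 0.217, *Cebpg* was 0.237 from *Cebpd*, *Cebpb* and *Cebpz* were 0.540 apart, and *Cebpa* was 0.621 from its nearest member.

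**Figure D4:**
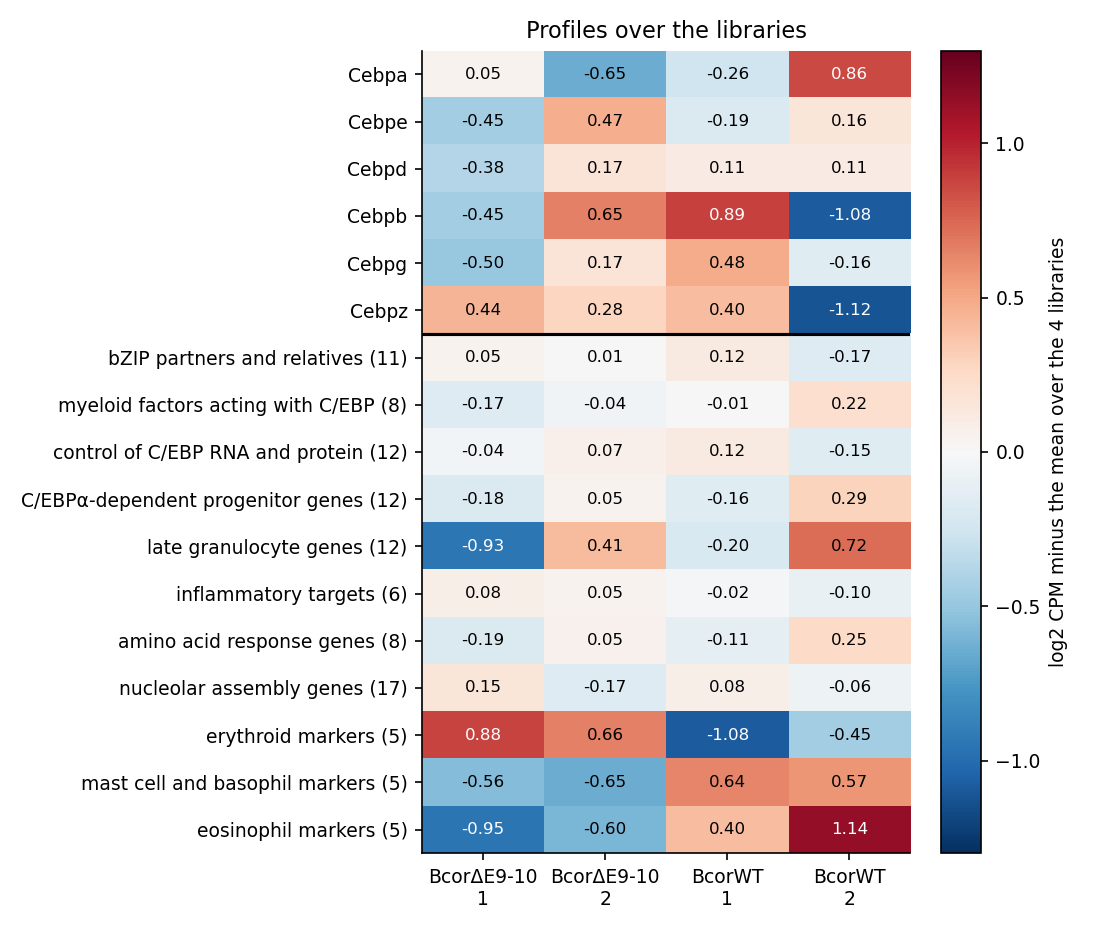
Log2 CPM in each library (columns) less the mean over the 4 libraries, for the C/EBP genes (above the line) and as the mean over the genes of each list (below, with the number of genes). *Cebpa* reaches 0.86 in BcorWT replicate 2, where *Cebpb* and *Cebpz* are at -1.08 and -1.12. The late granulocyte genes run from -0.93 in BcorΔE9-10 replicate 1 to 0.72 in BcorWT replicate 2.

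Genes that work with or under C/EBP factors were then described in 8 lists, of which 86 of 92 genes were in the table. In edgeR's test 0 of these 86 passed an adjusted p of 0.05, beside 0.0166% of all genes. Without adjustment 1 passed, beside 4.42% of all genes, namely the retinoic acid receptor gene *Rara* (log2 fold change -1.53, SE 0.63, edgeR unadjusted p = 0.0411, adjusted p = 0.945). It was at 2.03 and 3.91 CPM in BcorΔE9-10 and 5.55 and 11.7 CPM in BcorWT. DESeq2 and limma-voom also called 0 of the 86 after adjustment. Groups did not overlap for 20 of the 86 (23.3%), beside 33.9% of all genes.

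Among bZIP proteins that pair with or resemble C/EBP factors, 11 of 12 were in the table, with 5 above and 6 below 0 and a median log2 fold change of -0.01 beside -0.03 for all genes. With 1 library left out, that median ran from -0.23 without BcorWT replicate 2 to 0.00 without BcorWT replicate 1. The AP-1 subunit gene *Jun* was at 1857 and 1476 against 2041 and 1305 CPM. Its partner *Fos* was at 536 and 474 against 691 and 143 CPM, low in the same library in which *Cebpb* and *Cebpz* were lowest. Among the genes of this list with a mean of at least 10 CPM, *Atf2*, another dimer partner, had the largest log2 fold change, 0.56 (SE 0.34, edgeR adjusted p = 0.945), at 27.5 and 32.1 against 23.4 and 17.1 CPM.

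The 8 transcription factors that act with C/EBP in myeloid cells had 3 above and 5 below 0 (median -0.19). The median was -0.03 without BcorWT replicate 2 and -0.05 without BcorΔE9-10 replicate 1. *Spi1*, which encodes PU.1, was at 172 and 164 CPM in BcorΔE9-10 and 154 and 400.3 CPM in BcorWT. As for *Cebpa*, the highest library was BcorWT replicate 2. *Myb*, a factor of immature progenitors, was at 400.3 and 307 against 265 and 215 CPM, without overlap, at a log2 fold change of 0.56 (SE 0.33, edgeR adjusted p = 0.945). *Irf8*, a monocyte and dendritic cell factor, was at 244 and 188 against 280.4 and 274 CPM, also without overlap, at -0.36 (SE 0.32, edgeR adjusted p = 0.945). With 1 library left out that value ran from -0.56 to -0.18.

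Of 13 genes that act on C/EBP RNA or protein, 12 were measured, 6 above and 6 below 0. Their median was 0.03, but 0.24 without BcorΔE9-10 replicate 1 and -0.02 without BcorΔE9-10 replicate 2. *Trib1*, whose product directs C/EBPα protein to degradation, was at 369 and 397 CPM in BcorΔE9-10 and 207 and 293 CPM in BcorWT. The groups did not overlap, and the log2 fold change was 0.61 (SE 0.34, edgeR adjusted p = 0.945). Its relative *Trib2* lay the other way at low levels, 4.81 and 4.24 against 16.1 and 6.02 CPM. *Wdr5*, a chromatin cofactor bound by a C/EBPα isoform, was at 93.5 and 86.7 against 94.0 and 164 CPM, a log2 fold change of -0.52 (SE 0.36, edgeR adjusted p = 0.945) that was -0.06 without BcorWT replicate 2. The RNA-binding proteins' genes *Calr* and *Pcbp2*, which are known to act on *Cebpa* translation, were at 759 and 609 against 892 and 836 CPM and at 399.6 and 439 against 407 and 199 CPM.

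The 12 progenitor genes known to depend on C/EBPα had 4 above and 8 below 0, with a median of -0.11. The median was 0.16 without BcorWT replicate 2 and -0.41 without BcorΔE9-10 replicate 2. *Mpo*, which encodes myeloperoxidase, was at 6888 and 4284 against 6692 and 5331 CPM. *Prtn3*, a primary granule protease gene, was at 1993 and 2113 against 2735 and 2548 CPM, without overlap (log2 fold change -0.36, SE 0.34, edgeR adjusted p = 0.945). *Elane*, encoding neutrophil elastase, was at 904 and 732 against 656 and 2140 CPM. *Lyz1*, a lysozyme gene, was at 42.7 and 92.3 against 43.2 and 195 CPM. For *Elane* and *Lyz1*, as for *Cebpa* and *Spi1*, BcorWT replicate 2 was the highest library and the groups overlapped.

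The 12 late granulocyte genes, many of them dependent on C/EBPε, had 2 above and 10 below 0, and their median of -0.51 was the lowest of the 8 lists. The groups overlapped for all 12, while they did not overlap for 33.9% of all genes. Their summed level was 64207 and 157564 CPM in BcorΔE9-10 and 95968 and 146447 CPM in BcorWT, far above the 52.1, 61.9, 53.7 and 29.4 CPM of *Kit*, by which the cells were sorted. The alarmin gene *S100a8* alone was at 31874 and 72238 against 44423 and 44112 CPM. *Ngp*, a secondary granule gene, was at 10206 and 24341 against 16822 and 54004 CPM. *Cd177*, a neutrophil surface protein gene, was at 102 and 282 against 185 and 763 CPM, and *Lcn2*, which encodes lipocalin 2, at 334 and 888 against 528 and 2056 CPM. The summed level placed the libraries in the order BcorΔE9-10 replicate 1, BcorWT replicate 1, BcorWT replicate 2 and BcorΔE9-10 replicate 2, and the levels of *Cebpe* gave that order too. Those of *Cebpd* did so only through a near tie, 113.0 against 113.3 CPM in the BcorWT libraries. With every gene weighted equally the top places changed, since BcorWT replicate 2 was then at 0.72 and BcorΔE9-10 replicate 2 at 0.41 log2 units above the mean. In such bulk samples, fewer cells of a type and less RNA per cell cannot be told apart, and the part of mature granulocyte RNA in the *Cebpe* and *Cebpd* values was not tested. CD11b and Gr-1 were among the lineage antigens that the gate excluded. The purity reached by the sort is not given in the sources used here. The median of the list was -1.39 without BcorΔE9-10 replicate 2, -0.04 without BcorΔE9-10 replicate 1 and 0.14 without BcorWT replicate 2. Without either of the latter libraries it was not the lowest of the 8 lists.

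Of the 10 inflammatory targets of C/EBPβ and C/EBPδ, 6 were in the table, 3 above and 3 below 0 (median 0.13). The median was -0.22 without BcorΔE9-10 replicate 1 and 0.25 without BcorWT replicate 1. *Cd14*, a co-receptor for bacterial lipopolysaccharide, was at 19.6 and 28.7 CPM in BcorΔE9-10 and 16.6 and 11.1 CPM in BcorWT, without overlap (log2 fold change 0.81, SE 0.40, edgeR adjusted p = 0.945). The cytokine gene *Tnf* was at 15.5 and 18.7 against 14.3 and 32.4 CPM, and *Il1rn*, encoding an interleukin-1 receptor antagonist, at 8.87 and 10.9 against 8.76 and 19.8 CPM. Both were highest in BcorWT replicate 2, where *Cebpb* was lowest, whereas *Cd14* and the prostaglandin synthase gene *Ptgs2* (6.65 and 6.19 against 8.18 and 2.26 CPM) were lowest there, as *Cebpb* was.

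The 8 amino acid response genes, which ATF4 and C/EBP heterodimers bind, had 2 above and 6 below 0 (median -0.23). With 1 library left out the median ran from -0.34 without BcorWT replicate 1 to -0.06 without BcorWT replicate 2. *Phgdh*, the entry enzyme of serine synthesis, was even at 79.5 and 72.9 against 71.0 and 83.0 CPM. *Psat1*, which acts in the same pathway, was at 41.2 and 31.5 against 47.0 and 56.1 CPM, without overlap (log2 fold change -0.51, SE 0.32, edgeR adjusted p = 0.945). *Slc3a2*, an amino acid transporter subunit gene, was at 55.8 and 49.6 against 49.6 and 81.9 CPM.

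The 17 nucleolar assembly genes, the setting in which the product of *Cebpz* works, had 7 above and 10 below 0, with a median of -0.04. The median was -0.26 without BcorΔE9-10 replicate 1 and 0.04 without BcorΔE9-10 replicate 2. *Ncl*, which encodes nucleolin, was at 756 and 545 against 714 and 626 CPM, and *Npm1*, which encodes nucleophosmin, at 621 and 493 against 518 and 346 CPM. *Wdr12* was at 72.1 and 41.1 against 54.0 and 27.5 CPM, and its partner in ribosome assembly *Bop1* at 11.1 and 11.4 against 12.8 and 18.8 CPM. *Npm1* and *Wdr12*, like *Cebpz*, were lowest in BcorWT replicate 2, whereas *Bop1* was highest there.

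**Figure D5:**
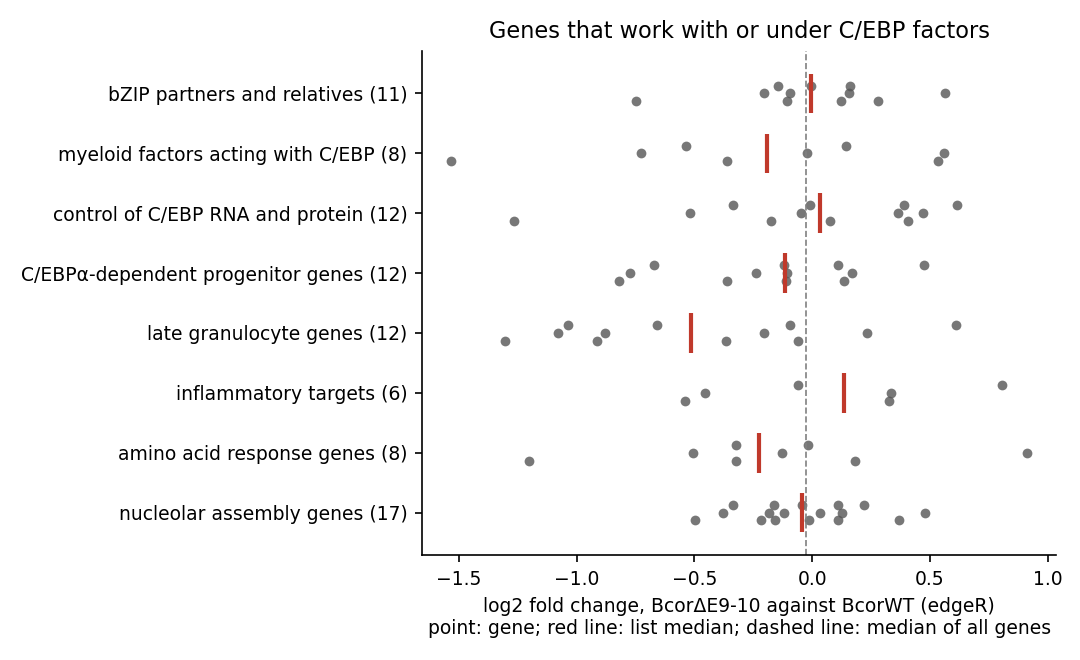
Log2 fold change of BcorΔE9-10 against BcorWT (horizontal axis) for each gene of the 8 lists, with the number of genes measured beside each name. Points are genes, red lines list medians and the dashed line the median of all genes (-0.03). Points lie on both sides of 0 in each list, and the late granulocyte median is lowest at -0.51.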

How the data were processed

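Quant-seq 3′ counts of KL cells were analysed in 2 BcorΔE9-10 and 2 BcorWT libraries. The authors removed low-quality reads, trimmed with cutadapt (version 1.7 per the submitters' processing notes), mapped to mm10 with HISAT2 and counted reads on genes with Subread featureCounts. The deposited values are raw counts. For BcorΔE9-10 replicate 2 and BcorWT replicate 1 the deposited values were taken for estimated counts, because fractional values occurred there for 1 gene, and gene counts were rounded for the fits and CPM, while the totals given are those before rounding. Columns of other samples not used numbered 0.

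edgeR 4.0.16 (R 4.3.3) was used with filterByExpr, which removed 0 genes, TMM scaling, a quasi-likelihood F test, a prior count of 0.125 and Benjamini-Hochberg adjustment over 12067 genes. The script was tested on simulated data. Log2 CPM for profiles used a prior count of 2, and ratios added 0.5 to each count. Intervals are 95%. Same-numbered libraries came from different animals, and the labels give no batch. Positions and coding sequences came from GENCODE M21 on GRCm38. The coding stretch of 1 member is not reported here.

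Alternatives were DESeq2 1.42.0 and its size factors, limma-voom (limma 3.58.1), other filters and prior counts, the replicate block, leaving out *Gm42418* and leaving out each library. 2 recomputations of the nearest profiles were added after seeing the data. Named genes were the members, *Bcor*, *Gm42418*, list genes past the threshold, the 2 highest and the 2 most changed genes of each list with a mean of at least 10 CPM, and the 3 nearest profiles of each member. *Ddit3*, *Rara*, *Trib2*, *Ptgs2*, *Klf1*, *Kit*, *Ly6a* and the overlapping genes were named outside this rule, after their values were seen. Members and lists were chosen with earlier results of these data known. Figures were drawn with matplotlib 3.10.9 in Python 3.11.15.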

Additional observations from a re-analysis of the deposited data

How the results depend on the processing

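The count of genes called between genotypes was 2 and stayed at 2 with DESeq2's size factors, no filter, a prior count of 2 and without *Gm42418*. It was 5 with at least 10 counts in every library, 4 by limma-voom, 43 by DESeq2, 14 with the replicate block, and 6 to 596 with 1 library left out, 596 being without BcorWT replicate 1. The members called numbered 0 under every alternative except without BcorWT replicate 1, so 0 to 1 (*Cebpz*), and the list genes called likewise 0 to 4 (*Cd177*, *Elane*, *Fos* and *Spi1*). Same-numbered libraries deviated from their group means with a correlation of -0.0945. With 2 libraries a group, each deviation is the reverse of its partner's, so this value cannot show whether the numbers share a batch. The block called 0 members. The log2 fold change of *Cebpb* was 0.20 with the replicate block and 0.23 by limma-voom, and that of *Jun* 0.021 and 0.018. With 1 library left out, log2 fold changes ran from -0.69 to 1.29 for *Cebpb*, -0.49 to 0.059 for *Cebpd*, -0.45 to 0.48 for *Cebpe*, -0.70 to 0.029 for *Cebpg* and -0.043 to 1.49 for *Cebpz*. Among list genes the ranges were -0.29 to 0.35 for *Jun*, -0.45 to 1.82 for *Fos*, -1.26 to 0.12 for *Spi1*, -0.49 to 0.20 for *Mpo*, -1.53 to 0.64 for *Lyz1*, -1.39 to 0.32 for *Elane*, -0.47 to 0.71 for *S100a8*, -1.80 to 0.038 for *Ngp*, -2.22 to 0.054 for *Cd177*, -1.95 to 0.21 for *Lcn2*, -0.92 to 0.26 for *Tnf*, -0.998 to 0.18 for *Il1rn*, -0.13 to 0.10 for *Phgdh*, -0.64 to 0.085 for *Slc3a2* and -0.30 to 0.18 for *Ncl*. The other genes of the naming rule with a reported log2 fold change, with *Ddit3* and *Cebpzos*, kept their sign, with ranges of -1.12 to -0.0016 for *Cebpa*, 0.35 to 0.80 for *Atf2*, 0.36 to 0.74 for *Myb*, -0.56 to -0.18 for *Irf8*, -0.50 to -0.18 for *Calr*, 0.04 to 1.07 for *Pcbp2*, 0.38 to 0.89 for *Trib1*, -0.87 to -0.06 for *Wdr5*, -0.41 to -0.32 for *Prtn3*, 0.51 to 1.12 for *Cd14*, -0.71 to -0.32 for *Psat1*, 0.10 to 0.68 for *Npm1*, -0.74 to -0.19 for *Bop1*, 0.02 to 1.04 for *Wdr12*, -0.33 to -0.09 for *Ddit3*, 0.60 to 1.19 for *Cebpzos* and 0.15 to 0.34 for *Bcor*. The differences between groups in log2 ratio ran from -2.35 to 0.75 for *Cebpa* to *Cebpb*, -1.44 to 0.18 for *Cebpa* to *Cebpe*, -1.15 to 0.62 for *Cebpa* to *Cebpg* and -0.58 to 1.41 for *Cebpb* to *Cebpd*. Between 2 and 6 members kept their place in the order of levels, 2 without BcorWT replicate 2. The causes were not tested. Of the 18 nearest profile genes, 18 remained with DESeq2's size factors and 15 without *Gm42418*. With 2 libraries a group, the intervals of the members exclude only large differences, and the genotype cannot be told apart from other differences between the recipients. *Cebpg* had the fewest counts of the members, 80 to 145.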
